A study of Mus musculus with 7 samples.

Results

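DNA replication and mitosis genes were followed across heart and blood leukocytes of mice with and without a myocardial infarct. The group holds 42 genes, 20 of S phase and 22 of mitosis, chosen by symbol from textbook knowledge of the cell cycle, and every one of them had an entry in all 7 deposited matrices. They are 42 of the 27514 genes shared by the annotations. Single-cell RNA was sequenced by droplet 3' chemistry, and each captured transcript was tallied by its unique molecular identifier (UMI). Leukocytes came from C57BL6/J mice, in which permanent ligation of a coronary artery caused the infarct. 5 libraries of CD45+ heart cells from males, negative for a CD45.2 antibody given intravenously and depleted in part of neutrophils, were made with version 2 chemistry from hearts without infarct (steady state, 5 mice) and on day 1 (5 mice), day 3 (5 mice), day 5 (5 mice) and day 7 (3 mice). A pool of CD11b+ myeloid heart cells from males, made with version 3 chemistry, carried hashtag antibodies for day 1 (5 mice), day 3 (5 mice) and day 5 (3 mice). A further pool held CD11b+ cells, negative for Ter119, B220 and NK1.1, from blood and heart of mice 8 to 10 weeks old under hashtags 1 to 7, with Ly6G+ and Ly6G- cells brought to about equal numbers. Its mice had no surgery (3 mice), sham surgery (day 1 or day 3, 3 mice each) or an infarct (day 1 or day 3, 5 mice each). Which of those 7 hashtags marks which condition is not given in the sources used here, so they entered no test and are described by number. Mice of a time point were pooled, so no replicate animals exist and p-values measure only the spread between sums of cells.

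S-phase genes build and license the replication fork. The minichromosome maintenance (MCM) proteins form the helicase that Cdc6 and Cdt1 load onto origins, ribonucleotide reductase, thymidylate synthase and thymidine kinase supply nucleotides, and Pcna clamps the polymerases to DNA. Mitotic genes encode the cyclin-dependent kinase Cdk1 and its A and B cyclins, the spindle motors and kinetochore proteins that move chromosomes, and the ubiquitin ligase partners that end mitosis. Blood monocytes that enter an injured heart become macrophages, which can divide in the tissue, whereas circulating neutrophils have left the cell cycle.

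Promoter sequences of 4 members are shown because their transcripts carry the contrasts described below: Mcm7 (S phase) and Hmmr (mitosis) rose by day 5, Slbp (S phase) fell, and Kif23 (mitosis) was detected in neutrophils apart from the other mitotic genes. Each run is 300 bases of the gene's own strand, 5′ to 3′, from 250 bases before the start to 50 after it, taken from RefSeq on build GRCm38.p6. Capitals mark matches on either strand to the letters TTCCCGC or TTGGCGC (E2F-type), TTTGAA (of the cell cycle genes homology region, CHR-type) and CCAAT; near the start of Mcm7 an E2F-type match and a CCAAT match overlap. Mcm7 (minus strand) lies at chr5:138171834-138172133, Hmmr (minus strand) at chr11:40733388-40733687, Slbp (minus strand) at chr5:33652525-33652824 and Kif23 (minus strand) at chr9:61946750-61947049.
Mcm7: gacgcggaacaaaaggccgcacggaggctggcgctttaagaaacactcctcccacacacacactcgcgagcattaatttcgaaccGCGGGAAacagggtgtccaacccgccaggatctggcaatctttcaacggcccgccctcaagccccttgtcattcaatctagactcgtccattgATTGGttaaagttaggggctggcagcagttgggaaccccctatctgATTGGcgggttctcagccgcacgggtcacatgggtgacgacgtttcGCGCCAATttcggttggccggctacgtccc
Hmmr: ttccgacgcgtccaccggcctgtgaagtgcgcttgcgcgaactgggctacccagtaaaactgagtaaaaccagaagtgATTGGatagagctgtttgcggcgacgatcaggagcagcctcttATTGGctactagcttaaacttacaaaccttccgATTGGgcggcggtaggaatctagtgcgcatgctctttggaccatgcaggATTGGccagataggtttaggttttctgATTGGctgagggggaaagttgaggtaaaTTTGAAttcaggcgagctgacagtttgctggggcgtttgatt
Slbp: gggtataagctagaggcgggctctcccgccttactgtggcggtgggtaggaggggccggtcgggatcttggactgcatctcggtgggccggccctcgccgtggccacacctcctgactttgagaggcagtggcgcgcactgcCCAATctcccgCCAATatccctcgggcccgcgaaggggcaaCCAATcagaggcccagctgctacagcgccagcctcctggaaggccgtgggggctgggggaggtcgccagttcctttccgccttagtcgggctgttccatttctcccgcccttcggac
Kif23: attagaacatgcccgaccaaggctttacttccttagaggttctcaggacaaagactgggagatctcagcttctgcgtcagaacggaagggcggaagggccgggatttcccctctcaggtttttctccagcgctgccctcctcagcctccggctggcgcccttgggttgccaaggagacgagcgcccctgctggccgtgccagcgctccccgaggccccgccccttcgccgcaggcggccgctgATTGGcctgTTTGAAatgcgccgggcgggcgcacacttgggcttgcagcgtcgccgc

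Promoter windows were matched for 18 of the 20 S-phase and 19 of the 22 mitotic members, beside 27025 promoters in all. E2F-type letters were in 9 S-phase windows (50%), in 3 mitotic windows (15.8%) and in 6.93% of all windows. CHR-type letters were in 2 S-phase windows (11.1%), in 14 mitotic windows (73.7%) and in 18.1% of all windows. CCAAT was in 10 S-phase windows (55.6%), in 16 mitotic windows (84.2%) and in 37.9% of all windows, and CHR-type letters together with CCAAT in 1 S-phase window, 13 mitotic windows and 7.12% of all. The windows of Tk1 and Birc5, which were among the members with the smallest p-values on day 5, held none of these letters.

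Depth, classes and quality set what the values can show. After filtering, the CD45+ libraries held 522 to 1793 cells, the CD11b+ pool 4263 and the blood and heart pool 9999. At most 2 cell barcodes were shared by any pair of CD45+ libraries and 28 by the pools. Cells were clustered without the members and without the other cell cycle genes listed for this work, and named from marker genes. Each monocyte/macrophage cluster had 4 to 16 detected markers, such as C1qa, Adgre1, Ccr2 or Fn1, and each neutrophil cluster 7 to 18, such as Csf3r and Cxcr2. Monocytes/macrophages numbered 526 at steady state, 246, 643, 769 and 585 on days 1, 3, 5 and 7 of the CD45+ libraries, and 228, 1081 and 1334 on days 1, 3 and 5 of the CD11b+ pool. Their median depth was 7230 to 10726 UMIs per cell in the CD45+ libraries and 22502 to 28783 in the pool, and that of neutrophils 2542 to 4333. Different clusters held the class on different days. Most cells of CD45+ day 1 were in a cluster led by Ccl12, Saa3 and Ccl2 (237 cells of that day), with 6 monocyte/macrophage and 4 neutrophil markers detected, those of day 3 in one led by Ms4a4c, Tgfbi and Plac8 (439 cells), and those of days 5 and 7 in one led by Ms4a7, Apoe and Trem2 (519 and 442 cells). The name of the day 1 cluster was not stable: at Leiden resolution 1.0 a cluster of 212 cells led by Saa3, Cxcl3 and Arg1 had 5 markers of each class and was named neutrophil, which left 37 of the 246 monocytes/macrophages of CD45+ day 1 and raised neutrophils from 216 to 426. That day is the CD45+ baseline of each contrast with day 1, and the median changes without it are given beside those contrasts.

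In monocytes/macrophages the sums of both groups of genes were lowest on day 1 in both experiments; on day 3 they were high in the CD11b+ pool and just under steady state in the CD45+ libraries. Levels are UMIs of a gene per 1000000 UMIs of the class (CPM) with exact Poisson 95% intervals, which cover counting error only. The 22 mitotic genes summed to 174 CPM (161 to 188) at steady state, and to 74.9 (64.2 to 86.9), 162 (153 to 172), 381 (367 to 396) and 216 (205 to 227) on days 1, 3, 5 and 7 of the CD45+ libraries. In the CD11b+ pool they summed to 80.9 (73.5 to 88.9), 681 (673 to 690) and 671 (663 to 679) on days 1, 3 and 5. The day 1 sums of the 2 experiments lay close together, and the pool was above the CD45+ libraries on days 3 and 5. The CD45+ course depended on how cells were clustered. With cell cycle genes among the clustering genes, a cluster of 146 CD45+ cells stayed unnamed, the class went from 769 to 738 cells on CD45+ day 5, and its mitotic sums were 150 CPM at steady state and 85.3, 134 and 138 CPM on CD45+ days 3, 5 and 7. Day 1 was then still lowest at 74.9 CPM, but day 5 was no longer highest, while pool day 3 was at 703 CPM. The 20 S-phase genes summed to 450 CPM at steady state, to 264, 431, 494 and 385 on days 1, 3, 5 and 7 of the CD45+ libraries and to 273, 758 and 636 on days 1, 3 and 5 of the pool. From day 1 to day 5 the summed S-phase level thus differed less than the mitotic one in both experiments. A sum over many cells cannot tell more cells with a transcript apart from more transcript per cell.

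**Figure D1:**
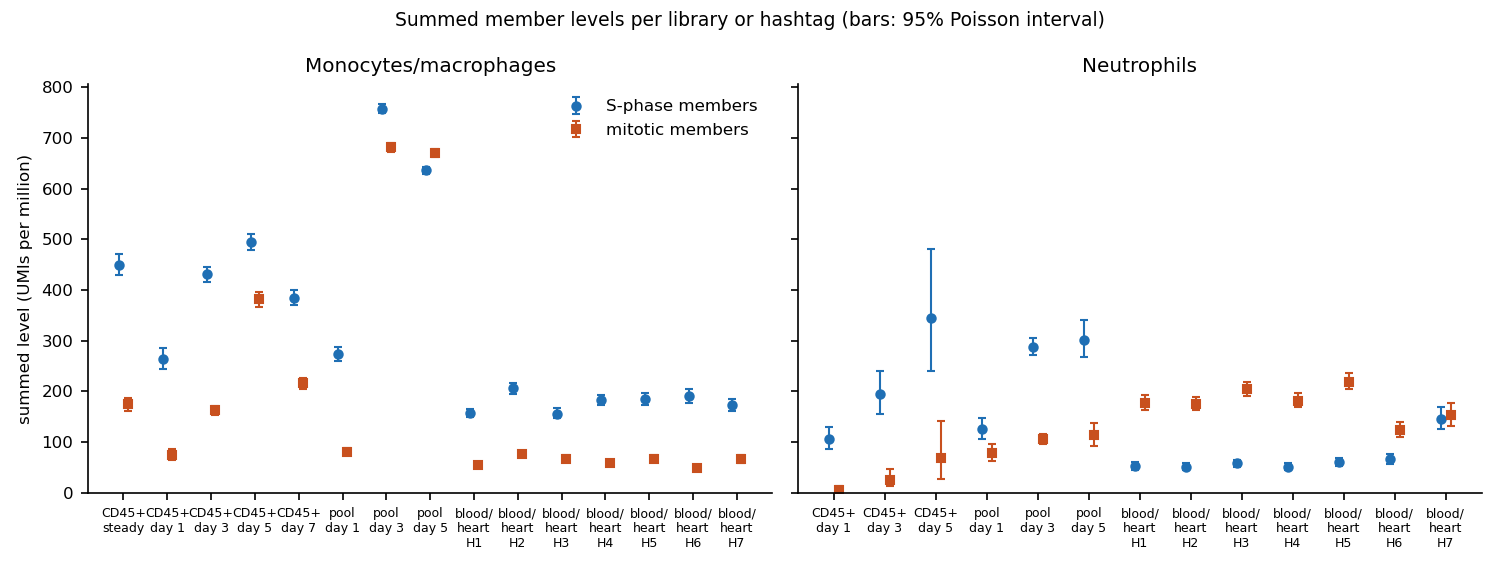
Summed level of the 20 S-phase and of the 22 mitotic genes in monocytes/macrophages and neutrophils, in CPM with exact Poisson 95% intervals, for each library or hashtag. In monocytes/macrophages both day 1 sums are the lowest of their experiment, with mitotic sums of 74.9 and 80.9 CPM against 381 and 671 CPM on day 5.

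Day 5 was compared with day 1 over 6 sums, days 1, 3 and 5 in 2 experiments, by edgeR's quasi-likelihood test with the experiment as a block and Benjamini-Hochberg adjustment across the 10642 genes that passed the filter on low counts. All 42 members were among them. 13 of 20 S-phase genes rose and Slbp fell, and 14 of 22 mitotic genes rose, where 11.6% of all genes tested were called (4.94% higher, 6.64% lower). The median log2 change was 1.95 over the S-phase genes and 3.32 over the mitotic genes, against -0.02 over all genes. Scaling by total counts in place of TMM moved the median of all genes to 0.24 and the split of all calls from 526 higher and 707 lower to 733 and 366, with 14 S-phase and 14 mitotic genes higher and none lower. Without the block for the experiment no member and no gene was called. Leaving out a day 1 or day 5 sum left that day with 1 sum, so only median log2 changes are given here. They were 1.79 (S-phase) and 3.08 (mitotic) without CD45+ day 5, and 2.40 and 3.42 without the pool's day 5 hashtag. Without CD45+ day 1 they were 1.89 and 4.06, and without the pool's day 1 hashtag 1.89 and 1.75. Without the pool's day 3 sum 12 S-phase and 16 mitotic genes were called, beside 338 higher and 377 lower of all 11037 genes. Without CD45+ day 3 the counts were 12 and 17, beside 423 higher and 386 lower of all 11046 genes. With cell cycle genes in the clustering 11 S-phase and 6 mitotic genes rose and Slbp fell. At Leiden resolution 1.0, with 37 cells in the CD45+ day 1 sum, 14 S-phase and 20 mitotic genes rose.

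Among the helicase genes, Mcm7 was at 14.8 CPM at steady state, at 0.861, 13.9, 16.5 and 13.4 CPM on days 1, 3, 5 and 7 of the CD45+ libraries, and at 3.15, 32.5 and 25.3 CPM on days 1, 3 and 5 of the pool. Every later sum lay above both day 1 sums, and the log2 change on day 5 was 3.08 (SE 0.34, edgeR adjusted p 0.00940). Mcm5 was at 14.8 CPM at steady state, at 1.72, 15.1, 19.1 and 17.4 CPM on the same days of the CD45+ libraries and at 6.85, 46.8 and 34.5 CPM in the pool. Its log2 change was 2.43 (SE 0.32, edgeR adjusted p 0.0136), again with day 1 apart from all other sums. Mcm6 went through 30.6 CPM at steady state, 3.44, 24.9, 34.4 and 24.0 CPM in the CD45+ libraries and 10.9, 54.5 and 45.2 CPM in the pool, and rose by 2.24 log2 (SE 0.31, edgeR adjusted p 0.0150). Mcm3 measured 20.5 CPM at steady state, 5.17, 20.8, 24.7 and 21.3 CPM in the CD45+ libraries and 14.3, 57.4 and 41.8 CPM in the pool, a rise of 1.58 log2 (SE 0.26, edgeR adjusted p 0.0221). These 4 helicase subunits had the same shape, lowest on day 1 and, in the pool, higher on day 3 than on day 5. Mcm2 also rose, by 2.05 log2, whereas Mcm4 (0.61 log2, adjusted p 0.285) did not pass the test: its CPM was 11.2 on day 1 and 14.5 on day 5 in the CD45+ libraries, 7.22 and 17.7 in the pool.

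Of the genes of nucleotide supply, Tk1, the thymidine kinase of the salvage pathway, was at 6.47 CPM at steady state, at 0.430, 7.26, 16.3 and 11.7 CPM on days 1, 3, 5 and 7 of the CD45+ libraries, and at 1.11, 20.8 and 24.9 CPM in the pool. Both day 5 sums were the highest of their experiment, and Tk1 had the smallest p of the members (4.49 log2, SE 0.45, edgeR adjusted p 0.00737). Rrm2, the regulated subunit of ribonucleotide reductase, was at 7.77 CPM at steady state, at 3.44, 10.2, 17.0 and 9.76 CPM in the CD45+ libraries and at 0.926, 24.3 and 25.2 CPM in the pool (3.39 log2, SE 0.65, edgeR adjusted p 0.0311). The large subunit Rrm1 was at 15.02 CPM at steady state, at 5.17, 14.9, 19.8 and 13.1 CPM in the CD45+ libraries and at 10.6, 46.4 and 40.8 CPM in the pool (1.73 log2, SE 0.26, edgeR adjusted p 0.0178). Day 1 was lowest for both subunits in both experiments. Dut, which clears dUTP, rose by 2.23 log2. Thymidylate synthase (Tyms) did not pass (0.43 log2, adjusted p 0.560): it measured 15.1 CPM on day 1 and 19.1 CPM on day 5 in the CD45+ libraries, with 9.41 CPM on day 3, and 8.52, 20.9 and 17.5 CPM in the pool, so its day 1 and later sums overlapped.

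Of the genes that load and follow the fork, Cdc6 was at 2.33 CPM at steady state, at 0, 1.75, 1.39 and 3.45 CPM in the CD45+ libraries and at 0.555, 4.12 and 4.51 CPM in the pool. Its 3 UMIs on day 1 against 200 on day 5, added over both experiments, gave a ratio of 10.4 (exact interval 3.52 to 51.1). Such intervals cover counting error only and not the spread between sums. The adjusted p of Cdc6 was 0.0462 in edgeR. Hells, a chromatin remodeller of replicating cells, was at 4.92 CPM at steady state, at 1.29, 5.78, 7.95 and 6.46 CPM in the CD45+ libraries and at 0.926, 19.7 and 14.9 CPM in the pool (3.39 log2, SE 0.55, edgeR adjusted p 0.0224). Both rested on few day 1 UMIs, and the call of Cdc6 was lost when any sum other than CD45+ day 1 was left out. Gins2, of the helicase complex, and Uhrf1, which reads hemimethylated DNA, rose by 1.86 and 2.11 log2. The origin loader Cdt1 (0.50 log2), the flap nuclease Fen1 (0.90 log2) and the ligase Lig1 (0.87 log2) did not pass, with adjusted p of 0.174, 0.0729 and 0.0844.

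Of the 2 S-phase genes with the most UMIs, Pcna did not pass and Slbp fell. Pcna was at 111 CPM at steady state, at 69.3, 88.5, 99.3 and 78.4 CPM in the CD45+ libraries and at 60.2, 118 and 106 CPM in the pool. Its log2 change of 0.39 (SE 0.21) did not pass the test (edgeR adjusted p 0.252), although both day 1 sums were the lowest. Slbp, which binds the stem-loop of histone mRNAs, was at 104 CPM at steady state, at 108, 107, 87.8 and 61.1 CPM in the CD45+ libraries and at 85.5, 80.2 and 61.4 CPM in the pool. Slbp fell by 0.66 log2 on day 5 (SE 0.16, edgeR adjusted p 0.0490), and was at its lowest CD45+ level on day 7. Its call was lost on total-count scaling (-0.39, adjusted p 0.169), without the filter (-0.57, adjusted p 0.0997), in the fit of the 2 days alone (-0.63, adjusted p 0.163), without the block (-0.65, adjusted p 0.647), at Leiden resolution 1.0 (-0.70, adjusted p 0.150) and without either day 3 or either day 5 sum, and its sign held in each of them.

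**Figure D2:**
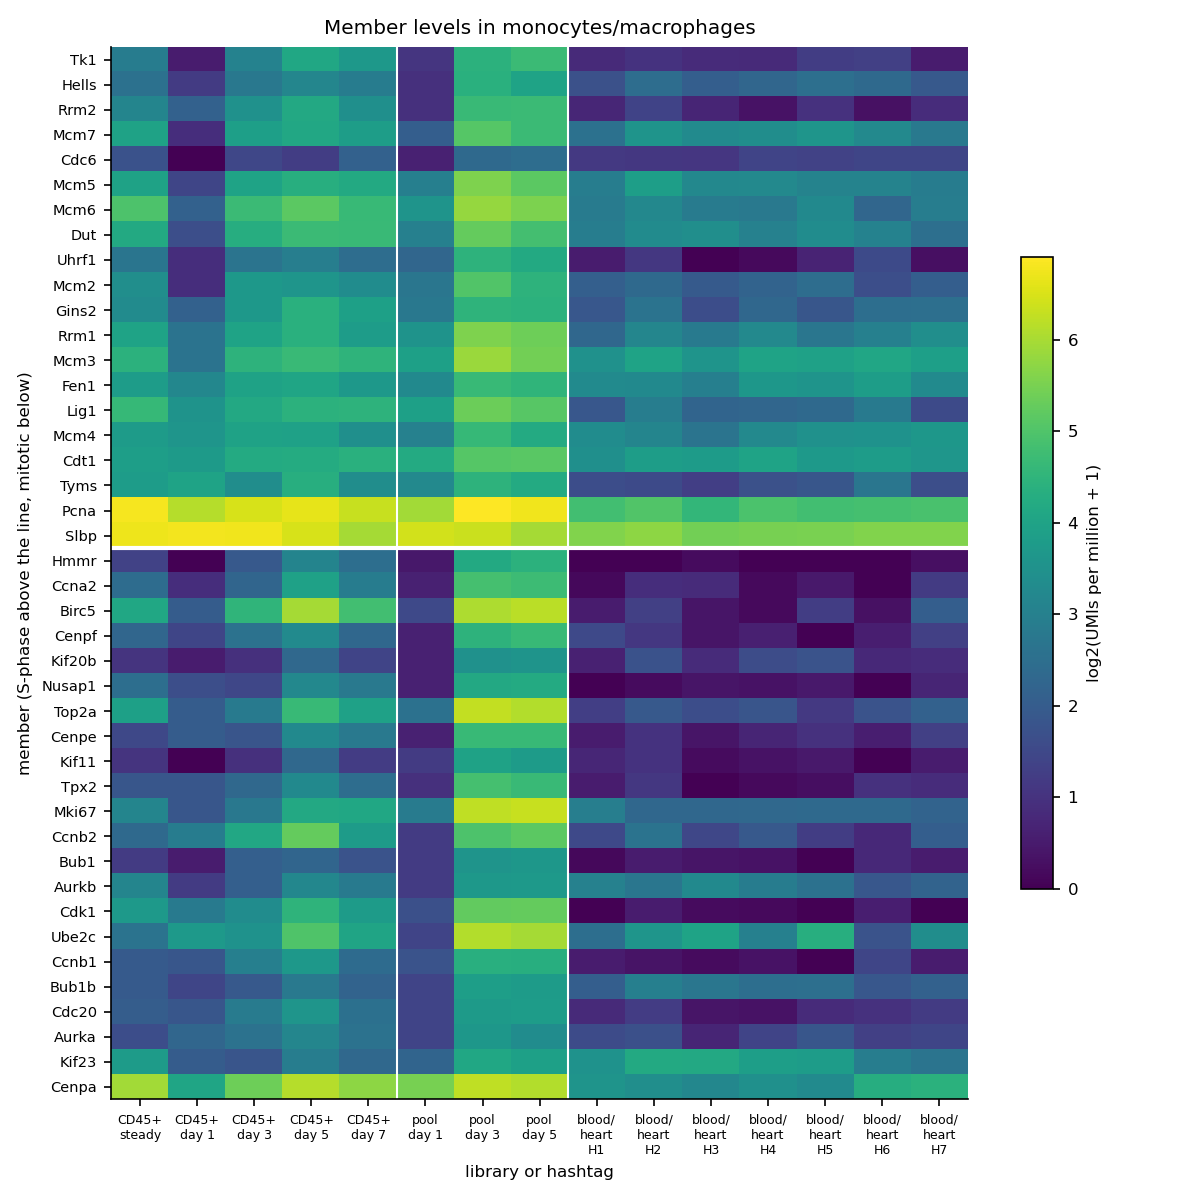
Heat map of the level of each of the 42 members (S-phase above the white line, mitotic below) in monocytes/macrophages, as log2 of CPM + 1 by colour, with 1 column per library or hashtag. Most members are lowest on day 1 in both experiments, for example Tk1 at 0.430 and 1.11 CPM. Slbp is not, at 108 and 85.5 CPM on day 1 and close to that on day 3 (107 and 80.2 CPM).

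Mitotic genes had the largest changes. Hmmr, a spindle and hyaluronan-binding protein, was at 1.55 CPM at steady state, at 0, 2.82, 7.67 and 4.66 CPM on days 1, 3, 5 and 7 of the CD45+ libraries and at 0.370, 17.3 and 20.5 CPM in the pool. Over both experiments it had 2 UMIs on day 1 and 917 on day 5, 862 of the latter from the pool. The ratio was 71.8 (exact interval 19.8 to 594, counting error only). The fitted log2 change was 5.91 (SE 0.68) and the edgeR adjusted p was 0.0100. Ccna2, the cyclin of S and G2 phases, was at 4.40 CPM at steady state, at 0.861, 3.77, 14.4 and 6.46 CPM in the CD45+ libraries and at 0.555, 28.3 and 25.5 CPM in the pool (5.07 log2, SE 0.89, edgeR adjusted p 0.0260). Both genes were under 1 CPM on day 1 in both experiments and reached their CD45+ maximum on day 5. Birc5, survivin of the chromosomal passenger complex, was at 16.3 CPM at steady state, at 3.01, 21.9, 61.8 and 26.9 CPM in the CD45+ libraries and at 1.85, 65.0 and 71.3 CPM in the pool (4.76 log2, SE 0.56, edgeR adjusted p 0.0104). These 3 calls held whichever of the 6 sums was left out. Aurkb, the kinase of the same complex, rose by 2.90 log2.

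Cenpf, a kinetochore protein, was at 3.88 CPM at steady state, at 1.72, 5.11, 8.78 and 3.90 CPM in the CD45+ libraries and at 0.555, 20.9 and 23.9 CPM in the pool (4.08 log2, SE 0.71, edgeR adjusted p 0.0258). Kif20b, a kinesin of cytokinesis, was at 1.04 CPM at steady state, at 0.430, 0.941, 4.04 and 1.65 CPM in the CD45+ libraries and at 0.555, 10.2 and 10.96 CPM in the pool (4.01 log2, SE 0.82, edgeR adjusted p 0.0356). In both genes the CD45+ sum of day 5 was the highest of its experiment, and Kif20b was still under 1 CPM on CD45+ day 3. Top2a, which untangles chromosomes, was at 14.2 CPM at steady state, at 3.01, 6.05, 24.0 and 14.6 CPM in the CD45+ libraries and at 5.00, 75.6 and 67.3 CPM in the pool (3.55 log2, SE 0.73, edgeR adjusted p 0.0358). Mki67, the proliferation antigen Ki-67, was at 7.77 CPM at steady state, at 2.58, 5.78, 17.0 and 16.2 CPM in the CD45+ libraries and at 6.29, 74.9 and 79.6 CPM in the pool (3.38 log2, SE 0.56, edgeR adjusted p 0.0230). For both the day 1 sums were the lowest of their experiment, and the pool's day 3 and day 5 sums lay above every CD45+ sum. The other mitotic genes that rose were Kif11, Ccnb2, Bub1, Ccnb1, Bub1b and Cdc20, between 2.40 and 3.52 log2. The 2 B cyclins and Cdc20, the activator of the anaphase ligase, were among them.

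Cdk1, Ube2c and Cenpa did not pass although their day 5 levels were above day 1 in both experiments. Cdk1, the mitotic kinase, was at 12.2 CPM at steady state, at 6.03, 9.14, 21.5 and 12.9 CPM in the CD45+ libraries and at 2.22, 37.0 and 37.6 CPM in the pool (2.84 log2, SE 0.74, edgeR adjusted p 0.0614). Ube2c, the ubiquitin carrier of the anaphase ligase, was at 5.18 CPM at steady state, at 12.1, 10.5, 31.1 and 15.3 CPM in the CD45+ libraries and at 1.67, 67.6 and 61.2 CPM in the pool (2.67 log2, SE 1.14, edgeR adjusted p 0.165). The 2 experiments differed in size, with a Ube2c change of 1.01 log2 in the CD45+ libraries and 4.91 log2 in the pool. Cenpa, the centromeric histone, was at 60.6 CPM at steady state, at 15.5, 40.2, 69.0 and 52.3 CPM in the CD45+ libraries and at 43.5, 74.2 and 67.8 CPM in the pool (1.05 log2, SE 0.34, edgeR adjusted p 0.0938). Nusap1 (3.61 log2), Cenpe (3.54 log2), Tpx2 (3.46 log2), Aurka (1.59 log2) and Kif23 (1.52 log2) did not pass either, with adjusted p between 0.0566 and 0.134. In the fit without the CD45+ day 1 library, day 1 was left with the pool's sum alone. The median log2 change of the mitotic genes was then 4.06, against 0.02 over all genes.

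**Figure D3:**
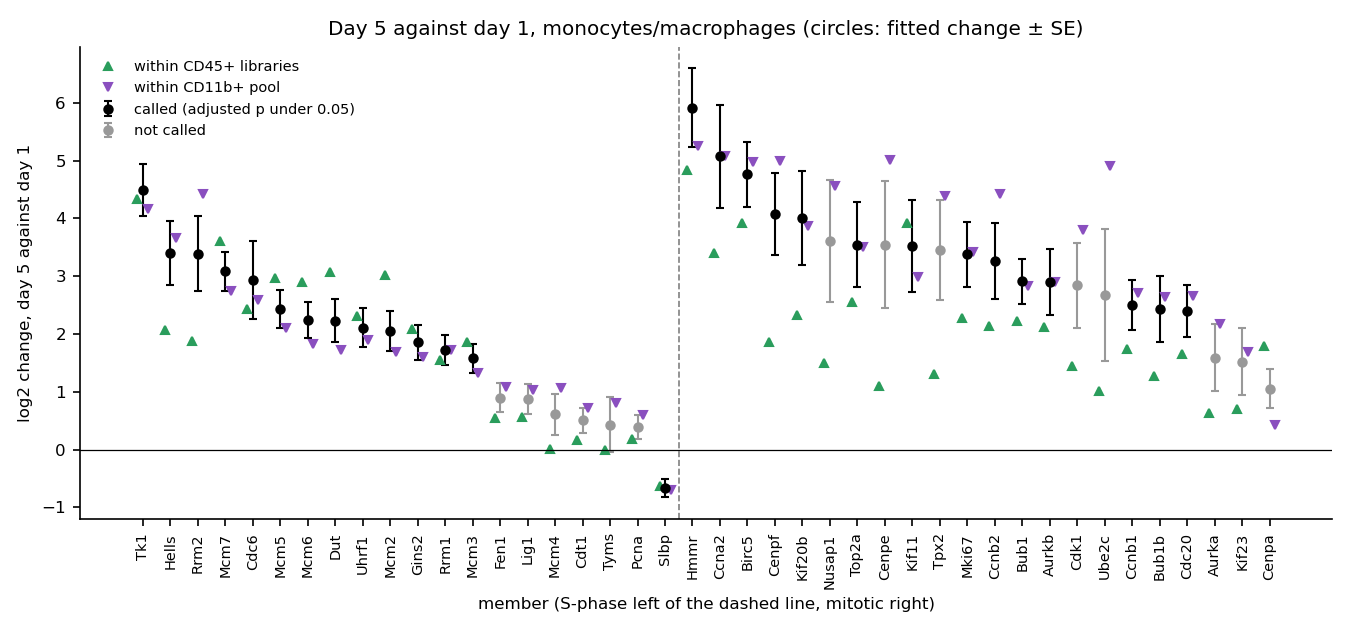
Log2 change from day 1 to day 5 in monocytes/macrophages for each of the 42 members, with the fitted value and its SE (circles) and the change within the CD45+ libraries and within the CD11b+ pool. Fitted changes run from -0.66 for Slbp to 5.91 for Hmmr, with black circles for members past an adjusted p of 0.05 and grey ones for the rest.

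Day 3 against day 1 gave fewer calls. Mcm5, Mcm7, Tk1 and Hmmr rose (each with an edgeR adjusted p of 0.0489), where 0.714% of all genes tested were called (0.15% higher). The median log2 change was 1.96 over the S-phase and 2.79 over the mitotic genes, against -0.01 over all genes, so the fitted sizes resembled those of day 5 while the adjusted p were higher. The count depended on the setting: it was 0 on total-count scaling and without the block, 12 S-phase and 13 mitotic genes in DESeq2, and 18 and 21 without the CD45+ day 1 library. No member was called without the pool's day 3 hashtag, 2 S-phase and 5 mitotic without CD45+ day 3, 7 and 3 without CD45+ day 5, 12 and 4 without the pool's day 1 hashtag, and 9 and 4 without its day 5 hashtag. Within the pool Mki67 changed by 3.34 log2 and Top2a by 3.68 log2, and within the CD45+ libraries by 0.80 and 0.65 log2. Nusap1, Cenpe, Ube2c, Tyms and Kif23 were lower on day 3 than on day 1 in the CD45+ libraries, by -0.49 to -0.96 log2, and higher in the pool. The 2 experiments differ in the sort, chemistry and depth, which cannot be told apart here.

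Day 5 against day 3 gave no calls with all 6 sums. No member passed edgeR's test, where 0.0282% of all genes were called, 0 members had an unadjusted p under 0.05, and DESeq2 also called 0. The median change was -0.05 log2 for the S-phase and 0.42 log2 for the mitotic genes, against -0.01 over all genes. In the CD45+ libraries Top2a was at 6.05 and 24.0 CPM and Mki67 at 5.78 and 17.0 CPM on days 3 and 5, while in the pool Top2a was at 75.6 and 67.3 CPM and Mki67 at 74.9 and 79.6 CPM. In the fit of the 2 days alone 2 of 22 mitotic genes were higher, beside 506 higher and 493 lower of all 11659 genes. Without the pool's day 1 hashtag 1 of 20 S-phase genes was lower, beside 483 higher and 567 lower of all 11028 genes. Neither count is read as a result about the members. The contrast shares its sums with those above.

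Genes of the same pathways outside the 42 gave the following counts in edgeR from day 1 to day 5. Of 39 other replication genes tested 16 rose and none fell, with a median of 1.42 log2, and of 50 other mitosis genes 27 rose and none fell, with a median of 3.03 log2. Of 25 regulators of G1 and of the cycle 5 rose and 2 fell, with a median of 0.73 log2. Against day 1, day 3 gave 1 call among these lists, a mitosis gene that rose. Foxm1, a transcription factor of mitotic genes, had 1 UMI on day 1 and 271 on day 5 over both experiments (ratio 42.4, exact interval 7.55 to 1683). Mybl2, its partner on such promoters, had 3 and 215 (ratio 11.2, exact interval 3.79 to 54.9), counted in the same way. Both passed the test, with edgeR adjusted p of 0.0260 and 0.0389.

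Cdkn1a, the p21 inhibitor of cyclin-dependent kinases, was at 792, 647 and 528 CPM on days 1, 3 and 5 of the CD45+ libraries and at 700, 405 and 333 CPM in the pool. It fell by 1.11 log2 on day 5 (SE 0.18, edgeR adjusted p 0.0201), with both day 1 sums above all later ones. Cdk6, a G1 kinase, changed by -0.42 log2 and did not pass (adjusted p 0.252). The histone H2afz rose by 0.84 log2 (adjusted p 0.0274), while the tubulin Tuba1b (0.18 log2, adjusted p 0.540) and the clamp loader subunit Rfc2 (1.29 log2, adjusted p 0.0617) did not pass and Dctpp1, which cleans the dCTP pool, rose by 1.28 log2 (adjusted p 0.0369). Nuf2 of the kinetochore, Cdca5 of sister cohesion and Dscc1 of the clamp loader had no UMI in either day 1 sum. Taking 3 UMIs over both sums as the floor, they were at least 20.6-fold, 7.78-fold and 8.61-fold higher on day 5, and the polymerase subunit Pole went from 1 to 188 UMIs (ratio 29.4, exact interval 5.22 to 1169).

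To compare cells across depths, each was thinned to 2000 UMIs. The share of monocytes/macrophages with at least 2 mitotic UMIs was 3.62% (exact 95% binomial interval 2.16 to 5.66) at steady state and 0.837% (0.102 to 2.99), 3.73% (2.41 to 5.503), 8.45% (6.58 to 10.6) and 5.30% (3.63 to 7.44) on days 1, 3, 5 and 7 of the CD45+ libraries. In the CD11b+ pool it was 2.64% (0.976 to 5.66), 12.5% (10.6 to 14.6) and 12.2% (10.5 to 14.1) on days 1, 3 and 5. Day 1 was lowest in both experiments, and the intervals of days 3 and 5 overlapped in the pool and not in the CD45+ libraries. The unthinned shares were 5.69% to 28.2% in the CD45+ libraries and 38.6% to 61.2% in the pool. Thinning left out 0 to 29 cells of the class per sum.

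Shares with any S-phase UMI spanned a narrower range, at 45.1% at steady state, 41.0%, 44.6%, 46.2% and 43.9% on days 1 to 7 of the CD45+ libraries and 38.8%, 49.6% and 47.0% in the pool. Shares with any mitotic UMI were 19.7% at steady state, 5.86%, 12.8%, 23.4% and 18.3% in the CD45+ libraries and 13.7%, 28.6% and 27.2% in the pool. Cells with an S-phase UMI were thus common on every day, Pcna and Slbp being the members seen in most cells (13.1% to 16.0% and 10.6% to 21.8% in the CD45+ libraries). Tk1 was in 0% of day 1 cells and 1.69% and 2.80% of day 5 cells of the CD45+ libraries and the pool. Mki67 was in 0% and 0.881% of day 1 cells and 1.95% and 8.85% of day 5 cells.

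**Figure D4:**
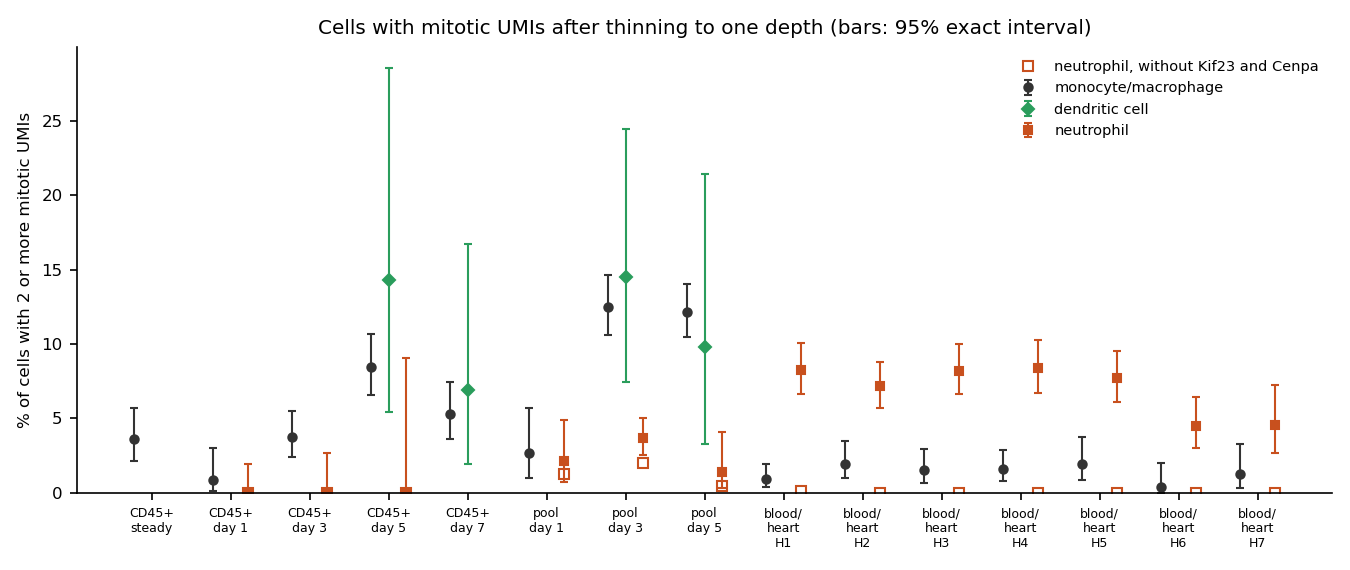
Share of monocytes/macrophages, dendritic cells and neutrophils, in percent, with at least 2 mitotic UMIs after thinning each cell to 2000 UMIs, with exact 95% binomial intervals, by library or hashtag; open squares give neutrophils without Kif23 and Cenpa. The share of monocytes/macrophages with at least 2 mitotic UMIs is 0.837% and 2.64% on day 1 and 8.45% and 12.2% on day 5.

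On days 3 and 5 of the CD11b+ pool the UMIs of most mitotic genes sat together in few cells. On day 3 of the pool 12.5% and on day 5 12.2% of thinned monocytes/macrophages had at least 2 mitotic UMIs. Leaving out the gene itself when choosing cells, those with at least 2 other mitotic UMIs held 81.5% and 68.2% of Mki67 UMIs, 74.4% and 83.8% of Top2a UMIs and 91.3% and 87.8% of Ube2c UMIs on the 2 days. Cenpa was more spread, with 25.6% and 46.2%. Of the S-phase genes several nucleotide enzymes were also concentrated, with 64.0% and 74.4% of Rrm2 UMIs, 58.6% and 68.3% of Tk1 UMIs and 80.0% and 59.0% of Tyms UMIs in such cells. Pcna (23.2% and 26.6%), Cdt1 (19.4% and 25.0%) and Slbp (14.6% and 13.2%) were mostly outside them. Of cells with at least 2 mitotic UMIs 79.1% on day 3 and 73.9% on day 5 also had an S-phase UMI, against 45.1% and 41.5% of cells with none. In the blood and heart pool, where 1 to 11 cells per hashtag had at least 2 mitotic UMIs, 0% to 36.4% of them had an S-phase UMI, against 28.9% to 35.4% of cells with none, so no such excess was seen there. On CD45+ day 3, with fewer UMIs, cells with at least 2 other mitotic UMIs held 2 of 6 Mki67 and 2 of 7 Top2a UMIs. They held 13 of 20 Birc5 and 6 of 9 Ube2c UMIs. On day 1 of the CD11b+ pool such cells held 0 of 30 Cenpa UMIs. Cells of 1 library or hashtag are not replicates, and these shares are descriptions.

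Cells with at least 2 mitotic UMIs had more UMIs and fewer monocyte transcripts on days 3 and 5 of the pool. On day 3 (134 cells against 765 with none) and day 5 (161 against 962) their median totals were 52758 and 43427 UMIs, against 26629 and 26631. Mean Plac8, a monocyte gene, was 1.06 and 0.18 UMIs per 10000, against 9.03 and 1.82, and Ly6c2 was 0.40 and 0.05 against 1.73 and 0.67. C1qa, a macrophage complement gene, was 23.0 and 30.0 against 12.9 and 26.5. The C1qa gap was wide on day 3 and narrow on day 5. Mrc1 was also higher, at 3.56 and 3.41 against 2.46 and 2.89. Other macrophage genes went the other way. Fcgr1, the gene of the Fc receptor CD64, was 2.34 and 2.18 against 3.45 and 3.11. Csf1r was 3.28 and 3.68 against 4.01 and 4.92. At the surface the median Ly6C antibody count was 72.5 against 103 on day 3 and 70 against 75 on day 5, and that of CD64, a macrophage Fc receptor, 73 against 50 and 62 against 53.5. The medians of the MSR1, F4_80, IA_IE, Cd11c and Cx3cr1 antibodies were also higher on both days. H2-Ab1 mRNA was lower, at 2.22 and 3.10 against 2.82 and 6.86. Total antibody counts were close, at 806 against 762 and 726 against 710. On pool day 1 only 6 cells had at least 2 mitotic UMIs. Their Ly6c2 was 3.52 against 1.77 in the 196 cells with none, and their Plac8 5.44 against 10.3. The median Ly6C antibody count was 239.5 against 173.5, and median totals were 23707 and 22343.5 UMIs. In the CD45+ steady state, where 18 cells had at least 2 mitotic UMIs, the resident macrophage genes Timd4 and Lyve1 were at 0.83 and 3.49 UMIs per 10000, against 0.72 and 2.74 in the 399 cells with none. Folr2, also a marker of the resident cluster, went the other way (7.30 against 8.52), as did C1qa (64.1 against 68.3).

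By cluster, 193 cells of the pool led by Ctsk, Pclaf, Acp5 and Ran held the highest sums, 2214 CPM of S-phase and 3237 CPM of mitotic UMIs. Of them 79 were from day 3 and 114 from day 5, 79.0% had at least 2 mitotic UMIs after thinning, and their median depth was 53952 UMIs. Barcodes with several hashtags had been removed, and a part of doublets of 1 hashtag in this cluster was not tested. The 3 complement genes C1qa, C1qb and C1qc and Gpnmb were the macrophage markers detected in it, although none was among its leading genes, and Pclaf is itself a replication gene that the lists did not hold. The other monocyte/macrophage clusters of the pool were lower, from 81.65 CPM of mitotic UMIs in the one led by Saa3, Ccl24 and Arg1, with 0 of 140 cells at 2 or more mitotic UMIs (which allows up to 2.14%), to 311 CPM in the one led by Gpnmb and Fabp5. In the CD45+ libraries the cluster led by Ms4a7, Apoe and Trem2 had 923, 544 and 394 CPM of S-phase and 390, 454 and 211 CPM of mitotic UMIs on days 3, 5 and 7. S-phase and mitotic levels there had different orders, S-phase being highest on day 3 and mitotic on day 5. The cluster led by Ms4a4c and Plac8 was at 71.0, 166 and 83.1 CPM of mitotic UMIs on those days. The cluster led by Sepp1, C1qa and Folr2, with Timd4 and Lyve1 among its markers, was at 178 CPM at steady state and 378 CPM on day 7, from 507 and 73 cells.

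Other heart classes with at least 30 cells had no replicate sums. Dendritic cells had mitotic sums of 856 and 271 CPM on CD45+ days 5 and 7 and 613 and 417 CPM on pool days 3 and 5, with thinned shares at 2 or more mitotic UMIs of 14.3% (5.43 to 28.5), 6.90% (1.91 to 16.7), 14.5% (7.45 to 24.4) and 9.80% (3.26 to 21.4). The intervals overlapped those of monocytes/macrophages on the same days. On CD45+ day 7 B cells had 225 CPM of mitotic and 507 CPM of S-phase UMIs, T cells 303 and 517 CPM, and NK cells 159 and 561 CPM. Shares at 2 or more mitotic UMIs were 4.73% (3.48 to 6.26) of B cells, beside 5.30% of the macrophages of that day. The shares of T cells (4.17%) and NK cells (7.32%) came from classes of only 96 and 41 cells, so they rest on very few cells.

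Neutrophils had lower mitotic levels in the CD45+ libraries than monocytes/macrophages of the same days. In the CD45+ libraries the mitotic genes summed to 5.77, 26.0 and 69.0 CPM on days 1, 3 and 5 (216, 135 and 39 cells) and 0% of neutrophils had 2 or more mitotic UMIs after thinning, which allows up to 1.58%, 2.22% and 7.69%. In the pool they summed to 77.4, 106 and 114 CPM, with shares of 2.13%, 3.65% and 1.42%. These intervals (0.294 to 5.03) overlapped that of the pool's day 1 macrophages (2.64%), at median depths of 3848 to 4333 and 22502 UMIs before thinning. Of the 80.9 CPM of those macrophages, 43.5 CPM was Cenpa. Without Kif23 and Cenpa, a choice made after seeing the data, pool day 1 macrophages were at 33.7 CPM and 0.441%. Neutrophils of that day were then above them, at 50.2 CPM and 1.28%. On pool days 3 and 5 macrophages stayed higher, at 591 and 589 CPM against 57.3 and 70.1 CPM. S-phase genes summed to 106, 194 and 345 CPM in the CD45+ libraries and 125, 287 and 302 CPM in the pool, most of it Slbp (72.2, 115 and 126 CPM in the pool) and Pcna (20.2, 96.6 and 63.5 CPM). Pcna was lowest on day 1 in both experiments, with 21.9, 40.2 and 59.2 CPM in the CD45+ libraries, and its log2 change on day 3 was 1.00 (SE 0.48, edgeR adjusted p 0.296).

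Across days no member was called in neutrophils. In simulated neutrophil sums edgeR recovered 36% to 48% of changes of 2 log2, so changes of that size could be missed. Of the 42 members, 5 S-phase genes (Mcm4, Mcm6, Pcna, Slbp and Cdt1) and 3 mitotic genes (Cenpa, Mki67 and Kif23) passed the filter. The test called 2.42% of 6153 genes on day 3 against day 1 (0.536% higher, 1.89% lower), 7.07% on day 5 against day 1 (1.85% higher, 5.22% lower), and 0% on day 5 against day 3. The members with an unadjusted p under 0.05 in these contrasts numbered 0, 1 (Mcm4) and 1 (Mcm6), and DESeq2 called 0. On total-count scaling 1 of 5 S-phase genes was called on day 5 against day 1, beside 1032 higher and 81 lower of all 6153 genes.

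Monocytes/macrophages were set against neutrophils of the same libraries and hashtags over 12 sums, with the library or hashtag as a block. 16 S-phase and 9 mitotic members passed the filter, where 56.7% of all genes tested were called (31.5% higher and 25.2% lower in macrophages), and the other members did not pass. Of those tested, 14 S-phase and 7 mitotic genes were higher and 1 of each was lower, which counts only genes high enough in 1 class to be tested. Mcm3 was higher in macrophages by 2.53 log2 (SE 0.36, edgeR adjusted p 2.8e-05), Dut by 3.41, Tyms by 3.00 and Cdk1 by 2.63 log2. Mki67 (0.88 log2, adjusted p 0.196) and Mcm4 (0.86 log2, adjusted p 0.0824) did not pass. In the opposite direction, Slbp was lower in macrophages by -0.62 log2 (SE 0.19, edgeR adjusted p 0.00992) and Kif23 by -1.09 log2 (SE 0.40, edgeR adjusted p 0.0271). Both calls were lost without the block (adjusted p 0.109 and 0.108), on total-count scaling (0.494 and 0.204) and without the pool's day 3 hashtag (0.0548 and 0.193), with the sign kept. The call for Kif23 was also lost in DESeq2 (0.0804) and without CD45+ day 5 or pool day 1, and that for Slbp without the filter (0.0839) and without pool day 5 (0.0527). At Leiden resolution 1.0, where most CD45+ day 1 cells changed class, both were lost (adjusted p 0.0928 for Slbp and 0.0832 for Kif23). Over the sums left out in turn, 8 to 17 S-phase and 2 to 15 mitotic genes were called.

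Kif23, a kinesin of the central spindle, had its highest levels in neutrophils of the blood and heart pool. The gene lies at chr9:61915905-61946774 on GRCm38 and no annotated gene overlaps it. It was at 142, 147, 174, 151 and 184 CPM under hashtags 1 to 5 and at 93.0 and 110 CPM under hashtags 6 and 7, in neutrophils with median depths of 3083.5 to 3809 UMIs. In heart neutrophils it was at 8.80, 32.9 and 22.3 CPM on days 1, 3 and 5 of the CD11b+ pool and at 0, 0 and 29.6 CPM in the CD45+ libraries, the last from 39 cells. After thinning, 14.8% to 29.5% of neutrophils of the blood and heart pool had a Kif23 UMI, against 0.962% to 3.17% of the monocytes/macrophages under the same hashtags. Neutrophils, the shallower class, were above monocytes/macrophages under every one of the 7 hashtags.

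The mitotic genes other than Kif23 and Cenpa were near 0 in these cells. Without Kif23 and Cenpa, a choice made after seeing the data, the mitotic sum in neutrophils of that pool was 3.36 to 8.72 CPM under the 7 hashtags, down from 124 to 219 CPM. The share of neutrophils with 2 or more mitotic UMIs went from 4.52% to 8.36% with all 22 genes to between 0% and 0.0967% without these 2. Among neutrophils with a Kif23 UMI 0% to 4.17% had a UMI of the other 20 genes, and among those without one 0.474% to 2.01%. In macrophages of the CD11b+ pool, by contrast, 70.4% (day 3) and 80% (day 5) of cells with Kif23 had another of the 20, against 19.4% and 20.7% of cells without it. In monocytes/macrophages of the blood and heart pool the shares were 0% to 15% with Kif23 and 4.81% to 8.06% without it. Only 3 to 20 of those cells per hashtag had Kif23. Kif23 apart from the other 20 was thus not shown to be particular to neutrophils of that pool. By cluster of the blood and heart pool Kif23 was at 217 CPM in the one led by Fgl2 and Il1b, 166 CPM in the interferon cluster led by Rsad2 and Isg15, 138 CPM in the one led by Wfdc17 and S100a9 and 63.1 CPM in the one led by Il1r2 and Cxcl2. Cenpa was at 24.9 to 34.1 CPM under the 7 hashtags. In the promoter window printed above, Kif23 has 1 CHR-type and 1 CCAAT match.

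**Figure D5:**
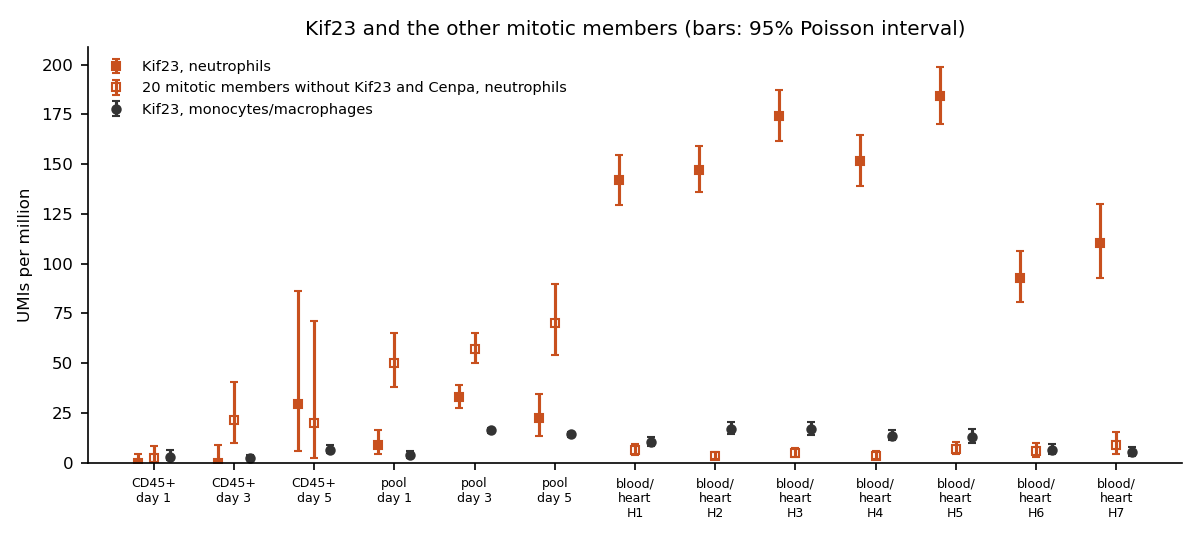
Kif23 in neutrophils and in monocytes/macrophages, and the sum of the 20 other mitotic genes (without Cenpa) in neutrophils, in CPM with exact Poisson 95% intervals, by library or hashtag. In neutrophils of the blood and heart pool Kif23 is at 93.0 to 184 CPM and the 20 others sum to 3.36 to 8.72 CPM.

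In monocytes/macrophages of the blood and heart pool the class sums of both groups were low under all 7 hashtags. S-phase genes summed to 156 to 206 CPM and mitotic genes to 48.4 to 76.2 CPM, against at least 264 and 74.9 CPM in the other experiments, so that only the mitotic range touched a heart sum, CD45+ day 1. Shares at 2 or more mitotic UMIs were 0.360% to 1.96%. Single members were at or near 0 there, with Hmmr at 0 to 0.213 CPM, Ccna2 at 0 to 1.28 CPM and Birc5 at 0.127 to 3.20 CPM. The clusters of the class differed in S-phase UMIs. A cluster of 843 cells was at 279 CPM, and at 266 to 308 CPM under hashtags 1 to 5, beside 264 and 273 CPM in the heart day 1 sums. The largest cluster, of 1903 cells, was at 146 CPM. S-phase sums in neutrophils of that pool were 51.3 to 65.8 CPM under hashtags 1 to 6 and 146 CPM under hashtag 7, where Slbp was at 78.5 CPM and Pcna at 19.8 CPM. Hashtag 7 was the highest for both genes, with 31.03 to 41.7 CPM of Slbp and 2.81 to 7.46 CPM of Pcna under the other hashtags.

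All 42 members have coordinates in the GRCm38 annotation, on 16 chromosomes. 10 are overlapped by another protein-coding gene, among them Tk1 at chr11:117815526-117826092, Mcm7 at chr5:138164583-138172422, Ube2c at chr2:164769898-164778822, Ccna2 and Cdt1. 14 members are overlapped on the opposite strand and 8 on their own, and Slbp is overlapped on the opposite strand by Gm10459. Whether the authors' counts used strand is not given in the sources used here, so reads of such genes and of their neighbours may have been mixed. Hmmr at chr11:40701395-40733422, Birc5 at chr11:117849251-117855743 and Mcm5 at chr8:75109569-75128439 overlap no annotated gene.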

How the data were processed

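The values deposited by the authors are UMI counts for each gene in each barcode, not normalized. They were made with Cell Ranger per the submitters' processing notes, with version 3.0.2 for the pools per their file headers; the version for the CD45+ libraries, the annotation release and the use of strand are not given in the sources used here. The build is mm10 (GRCm38) per the submitters' processing notes. The members and gene lists were chosen with earlier results of these data known.

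Barcodes were required to have 200 genes or more and no more than 10% of UMIs from mitochondrial genes. Scrublet marked 2 to 6 doublets per CD45+ library, under 1%, which were removed, so few that most doublets may remain; in the pools barcodes with several hashtags (289 and 1430) or none (283 and 163) were removed, so doublets of 1 hashtag remain. Cells were clustered in scanpy 1.11.5 (Leiden resolution 0.5) without cell cycle genes and named from markers. UMIs were summed per class and library or hashtag with at least 30 cells. edgeR 4.0.16 in R 4.3.3 (filterByExpr, TMM, glmQLFTest, two-sided, Benjamini-Hochberg, threshold 0.05) fitted day with experiment as block, or class with library or hashtag as block. Steady state, day 7 and the blood and heart pool entered no test. The biological coefficient of variation was 19.3% in monocytes/macrophages, 31.0% in neutrophils and 26.3% between classes. Calls by edgeR were tested on simulated data in which 200 genes changed by 2 log2, with a coefficient of variation of 30%. It recovered 68% to 75% of them in monocytes/macrophages, 36% to 48% in neutrophils and 92% between classes. Of the calls made, 2.60% to 7.95% were false. Alternatives were total-count scaling, no filter, no block, 2 days only, DESeq2 1.42.0, each sum left out, a 20% mitochondrial limit, other clusterings and thinning to 1000 or 4000 UMIs. Sums of 1 experiment share sort and chemistry, which is what the block takes up.

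Full values were given for the 6 S-phase and 6 mitotic members with the most UMIs in the 6 monocyte/macrophage sums and the 6 of each with the largest called change. Of each other list the 2 genes with the most UMIs and the 2 with the largest called change were named.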

Additional observations from a re-analysis of the deposited data

Results flagged for a closer look

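The change from day 1 to day 3 in monocytes/macrophages went in opposite directions in the 2 experiments for 4 members with at least 20 UMIs, and the difference was not tested. The log2 change in the CD11b+ pool less that in the CD45+ libraries was 5.54 for Ube2c (-0.49 in the CD45+ libraries and 5.05 in the pool), 5.59 for Cenpe (-0.57 and 5.02), 2.03 for Tyms (-0.96 and 1.07) and 2.46 for Kif23 (-0.57 and 1.89). For day 5 against day 1 it was 0.82 for Tyms (-0.01 and 0.81), also not tested. The CD45+ change of Ube2c rests on very few cells, as all 9 of its thinned day 1 UMIs lay in 2 of 239 cells. Kif23 in neutrophils of the blood and heart pool, whose hashtags entered no comparison, was at 93.0 CPM under the lowest of the 7 hashtags.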

How the results depend on the processing

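In monocytes/macrophages on day 3 against day 1, S-phase and mitotic calls (3 and 1) became 0 and 0 on total-count scaling, 13 and 16 without the filter, 0 and 0 with no replicate block, 7 and 3 on the 2 days alone, 12 and 13 in DESeq2, 1 and 0 at the 20% mitochondrial limit, 8 and 2 with cell cycle genes in the clustering and 6 and 7 at Leiden resolution 1.0, where the CD45+ day 1 sum held 37 of 246 cells and the pool day 3 sum 738 of 1081, so the cells compared differed. Leaving out each sum gave 0 to 18 and 0 to 21 there, 4 to 20 and 3 to 22 on day 5 against day 1, and 0 to 1 and 0 on day 5 against day 3. All genes called ranged over 7 to 2695, 171 to 3588 and 0 to 1050 in monocytes/macrophages, over 34 to 742, 14 to 1036 and 0 to 35 in neutrophils (0 to 1 S-phase and 0 mitotic calls), and over 3455 to 5234 between classes (8 to 17 and 2 to 15). On day 5 against day 1 no replicate block gave 0 and 0, and clustering with cell cycle genes 6 mitotic calls. On day 5 against day 3 the 2 days alone gave 2 mitotic calls, beside 506 higher and 493 lower of all 11659 genes. In neutrophils total counts gave 1 S-phase call on day 5 against day 1, beside 1032 higher and 81 lower of all 6153 genes. Between classes no filter gave 22 mitotic calls. The lowest and highest counts of members and of all genes need not come from the same fit. The causes were not tested, except that no filter tests more members and the 2 days alone use fewer sums.

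With cell cycle genes in the clustering, mitotic sums were 150 CPM at steady state, 85.3, 134 and 138 CPM on CD45+ days 3, 5 and 7 and 703 CPM on pool day 3, and S-phase sums 376, 363 and 321 CPM on those CD45+ days and 772 CPM on pool day 3. At the 20% limit S-phase sums were 353 and 446 CPM on CD45+ days 1 and 3 and 770 and 649 CPM on pool days 3 and 5, and mitotic sums 94.4 CPM on CD45+ day 1 and 703 CPM on pool day 5. Without Kif23 and Cenpa, chosen after seeing the data, mitotic sums in neutrophils were 19.7 CPM on CD45+ day 5, 50.2, 57.3 and 70.1 CPM in the CD11b+ pool and 6.18, 3.36, 4.71, 3.51, 6.89, 5.70 and 8.72 CPM under hashtags 1 to 7.

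Shares of monocytes/macrophages with a mitotic UMI after thinning to 1000 and to 4000 UMIs were 10.8% and 34.1% at steady state, 2.44% and 11.8%, 8.09% and 20.8%, 14.2% and 34.8% and 13.7% and 33.7% on CD45+ days 1, 3, 5 and 7, and 7.46% (1000 only), 18.3% and 38.6%, and 17.6% and 39.2% on pool days 1, 3 and 5. With cell cycle genes in the clustering CD45+ day 5 gave 19.6%. Of 293 values of named members, no direction turned on day 3 (207 held their side of the threshold, 16 lost and 70 gained a call) or on day 5 (225, 54 and 14) against day 1. Few UMIs on day 1, 0 to 8 for several CD45+ members, limit its folds.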
